A study of Mus musculus with 6 samples.

Results

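Osteopontin (Spp1), macrophage migration inhibitory factor (Mif) and galectin-3 (Lgals3) are 3 secreted ligands, and Cd44, Cd74, Itgav and Cxcr4 encode surface proteins that bind them. These 7 genes were taken by symbol from the 28649 gene names of 6 single-cell libraries, and all 7 were found in every library. The libraries were made with 4T1, a mouse mammary tumour line that stands in for human triple-negative disease. In 3 of them the cells carried a non-targeting hairpin (shNC), and the other 3 carry the label of a hairpin to Pgk1 (shPgk1), the gene of the glycolytic enzyme phosphoglycerate kinase. Per the labels, both groups came from 4T1 cells that received the hairpin by lentivirus, were kept from 48 h on for 7 days under 2 µg/mL puromycin to give stable lines, and were profiled on a droplet platform. The series title names p65, a subunit of NF-kB, as a target of PGK1 and also names M2-like macrophages.

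Osteopontin is a phosphoprotein of bone matrix that tumour cells, macrophages and wound fibroblasts also secrete, and it binds integrins that contain the alpha-v chain (Itgav) as well as CD44. MIF is a cytokine that binds CD74, with CD44 as the signalling partner, and also the chemokine receptor CXCR4. Cd74 is at the same time the invariant chain that escorts MHC class II molecules, so antigen-presenting cells make much of it. Galectin-3 binds beta-galactoside sugars on glycoproteins, integrins and CD44 among them, and is abundant in macrophages.

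Total counts were 78778073 to 128933960 per library, and 41434 of 42902 barcodes were kept, 6104 to 7545 per library. The labels name only 4T1 cells, but the libraries also held immune and stromal cells, and nothing in the labels says that these came from tumours of separate animals. Clusters made without the 7 genes were named "-like" from marker lists. This gave 16333 epithelial tumour-like cells, 12508 monocyte or macrophage-like, 736 dendritic-like, 1482 neutrophil-like, 2829 T or NK-like, 1946 fibroblast-like and 438 endothelial-like cells, while 4883 cells stayed unnamed. The splitting markers were themselves in the lists that named the clusters, so their levels describe the split and do not test it. Of cells picked on the splitting markers of 1 lineage alone, 44.7% had the same lineage by cluster for Ccr7 and Ccl22. This was 71.5% for S100a8, 79.9% for Col1a2 and 88.8 to 95.9% for the others. Cdh5 lay at 397 to 519 CPM (counts scaled to the library's total, the usual per-library scaling) in endothelial-like cells and at most at 8.18 CPM elsewhere, Cd3e at 288 to 388 against 17.7 CPM at most, and Cd68, the least distinct, at 262 to 362 against 236 CPM at most. Pgk1 itself did not fall with the shPgk1 label. Over all kept cells it lay at 351, 341 and 313 CPM in the shNC libraries against 324, 324 and 349 CPM in the others (log2 fold 0.06 ± 0.07 SE, edgeR adjusted p = 0.593), and in tumour-like cells at 286, 244 and 217 against 245, 299 and 326 CPM (log2 fold 0.37 ± 0.15, edgeR adjusted p = 0.116). Because the hairpin's target does not mark the groups, directions below are those of "the libraries labelled shPgk1".

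The bases before the start of 3 genes are shown because these genes differed between the groups over all cells, Spp1 and Mif upward and Cxcr4 downward in the libraries labelled shPgk1, and because their windows held a searched motif. Itgav differed too, and its window held none. Each line gives the 200 bases before the RefSeq start (GRCm38.p6), 5′ to 3′ on the gene's strand, with matched motif letters in capitals.
Spp1 promoter, chr5:104434911-104435110, plus strand: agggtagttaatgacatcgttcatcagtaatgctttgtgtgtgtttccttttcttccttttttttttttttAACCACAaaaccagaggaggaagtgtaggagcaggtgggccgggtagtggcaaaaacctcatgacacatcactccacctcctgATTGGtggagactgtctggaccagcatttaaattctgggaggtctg
Mif promoter, chr10:75860278-75860477, minus strand: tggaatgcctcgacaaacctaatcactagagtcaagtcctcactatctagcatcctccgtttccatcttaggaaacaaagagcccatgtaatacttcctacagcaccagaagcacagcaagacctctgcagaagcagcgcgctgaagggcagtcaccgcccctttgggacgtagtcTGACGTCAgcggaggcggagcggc
Cxcr4 promoter, chr1:128592300-128592499, minus strand: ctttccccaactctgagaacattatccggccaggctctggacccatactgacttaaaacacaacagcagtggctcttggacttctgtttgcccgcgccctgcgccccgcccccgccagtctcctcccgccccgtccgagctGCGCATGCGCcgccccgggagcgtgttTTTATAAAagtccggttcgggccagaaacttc

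Both strands were searched for 8 motifs, some of them chosen after the sequences were seen. In the Spp1 window the capitals mark the RUNX core AACCACA, found in 3.49% of 32843 promoter windows of that length, and a CCAAT box on the other strand, found in 29.4%. The Mif window holds the cAMP response element TGACGTCA (1.47% of windows). The Cxcr4 window holds the palindromic NRF1 element, the first run of capitals there (0.728% of windows) and the TATA box letters TATAAA (9.96%), with 2 matches that overlap on opposite strands. None of the 3 windows held an NF-kB-type site, written as 3 G, 5 bases of any kind and 2 C (41.4% of windows), the AP-1 letters TGANTCA (5.48%) or the hypoxia element ACGTG (14.0%), which says only that these letters are absent from these bases. Of the windows searched but not shown, Lgals3 held 3 NF-kB-type matches, and Cd44 held 1 and 1 hypoxia element. The RefSeq start used for Lgals3 lies 6109 bases from the GENCODE M21 start. In GENCODE M21, Spp1 spans chr5:104435118-104441050, Mif chr10:75859353-75860240 and Cxcr4 chr1:128588199-128592293, and all 3 are protein-coding. The annotation also names 2 processed pseudogenes of Mif, neither among the names in the files, and the sources used here do not say how the authors assigned reads that match several loci, so the Mif counts are less certain than the others.

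Levels were compared between lineages as a description, with no test, in CPM of the lineage's summed counts in each library. RNA set free from lysed cells gives counts in cells that do not make a gene, so each level was set beside a yardstick, namely how much of the all-cell level the markers of the other lineages reached in the same cells. In epithelial tumour-like cells that was 16.6 to 23.1% over the 6 libraries, and the highest single marker list reached 45.0%.

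Spp1, the osteopontin gene, was highest in fibroblast-like cells. The shNC libraries held 3131, 3151 and 4422 CPM there and the libraries labelled shPgk1 3952, 3505 and 2866 CPM. No other lineage came as high in any library, and the order below was epithelial tumour-like cells (mean 2089 ± 350 SD CPM, n = 6), then monocyte or macrophage-like cells (1359 ± 352 CPM), whose ranges overlapped. T or NK-like, neutrophil-like, dendritic-like and endothelial-like cells followed between 718 and 394 CPM, each overlapping its neighbour. In endothelial-like cells Spp1 stood at 19.8 to 25.1% of its all-cell level, at the yardstick of 18.2 to 24.3% there, which is read as background. Fibroblast-like cells stood at 141 to 268% of it.

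Fibroblast-like cells were not alike in Spp1. At a finer clustering, the cluster led by Crabp1, Lrrc15, Grem1 and Tnc, genes of myofibroblasts and matrix remodelling, held 4220 ± 474 CPM of Spp1 (SD, n = 6 libraries). The cluster led by Reg3g and Reg1, with Dcn, Pi16 and Dpt among its leading genes, held 642 ± 85.9 CPM, and the ranges of 3645 to 4798 and 475 to 711 CPM did not overlap. Mif differed less but also without overlap (1180 ± 86.8 and 800 ± 102 CPM), while Itgav overlapped (53.2 and 46.6 CPM). A T or NK-like cluster led by granzyme genes, Prf1 and Xcl1 held Spp1 at 635 to 3893 CPM (mean 1808 ± 1403 CPM), from as few as 27 cells in a library.

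Mif, which most cells make, varied least of the ligands across lineages. Epithelial tumour-like cells were highest at 1792 ± 135 CPM and did not overlap the next, monocyte or macrophage-like cells at 1318 ± 65.2 CPM. Fibroblast-like cells followed at 1105 ± 87.7 CPM. Neutrophil-like, T or NK-like, dendritic-like and endothelial-like cells lay between 930 and 646 CPM, so the top lineage was 2.77 times the lowest.

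Lgals3 was highest in macrophages. Monocyte or macrophage-like cells held 2225, 2534 and 1976 CPM in the shNC libraries against 2271, 1959 and 2183 CPM in the libraries labelled shPgk1, above every other lineage in every library. Dendritic-like cells came next (1286 ± 164 CPM), then neutrophil-like cells (990 ± 118 CPM) and epithelial tumour-like cells (823 ± 125 CPM), with overlap between each pair of neighbours. Within the macrophages the finer cluster led by Mmp12, Arg1 and Il10 held 3127 ± 321 CPM, the C1q-rich cluster 2188 ± 267 CPM and the cluster led by Slc7a2 and Ly6i 1633 ± 139 CPM, and these 3 ranges did not overlap (2634 to 3552, 1877 to 2526 and 1470 to 1818 CPM). The small cluster led by Retnla and Cd163 held 561 ± 69.9 CPM in the libraries labelled shPgk1 and 562 ± 62.7 CPM in shNC.

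Among the receptors, Cd74 had the steepest order. Dendritic-like cells held 14171 ± 976 CPM and monocyte or macrophage-like cells 10913 ± 1083 CPM, which overlapped slightly, and the next lineage was 6.56 times below the top. T or NK-like and fibroblast-like cells stood at 14.7 to 23.2% and 17.1 to 26.9% of the all-cell level, within reach of the yardsticks of 17.4 to 25.9% and 22.3 to 33.1%, and their Cd74 is read as background. Neutrophil-like cells held 2066 CPM, above the highest other marker list in 0 of 6 libraries and, as a share of the macrophage level, below the median macrophage marker in each library (18.5 against 27.8% in shNC library 3), which is read as background too. Endothelial-like cells held 1456 CPM, above the highest other marker list in 1 of 6 libraries. Epithelial tumour-like cells held 2606, 2093 and 2214 CPM in the shNC libraries against 2621, 1489 and 1940 CPM in the others. Set against macrophages of the same library this was 15.2 to 23.1%, while the median macrophage marker reached 3.96 to 9.72% there, and Cd74 lay above the highest of the 8 macrophage markers (6.14 to 13.4%) in each of the 6 libraries. Against the highest other marker list, Cd74 in tumour-like cells lay above it in 5 of 6 libraries. In shNC library 3 it stood at 38.3% of the all-cell level and that list at 45.0%.

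Cd44, the hyaluronan receptor, was highest in neutrophil-like cells. These held 828, 818 and 995 CPM in the shNC libraries against 1116, 1059 and 956 CPM in the libraries labelled shPgk1, from 142 to 983 UMIs per library, since neutrophil-like cells were shallow (median 1722 UMIs per cell). T or NK-like, tumour-like, macrophage-like and fibroblast-like cells lay together between 375 and 346 CPM. Dendritic-like cells held 277 CPM, and endothelial-like cells were lowest at 169 ± 37.8 CPM.

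Within the tumour-like cells Cd44 and Itgav shared an order that Spp1 did not follow. The cluster led by Tiam2, Efna5 and Hmga2 held Cd44 at 631, 782 and 583 CPM in the shNC libraries against 577, 770 and 643 CPM in the others. The Krt16 and Krt14 cluster held 305 to 359 CPM over the 6 libraries and the H19 and Clu cluster 245 to 293 CPM, so no ranges overlapped. Itgav went the same way, at 114 to 139, 41.2 to 49.1 and 24.6 to 31.3 CPM. The Tiam2 cluster is also rich in the nuclear RNA Malat1 (4707 CPM against 287 CPM in the H19 cluster), and the part of nuclear RNA in these levels was not tested. Spp1 was instead highest in the H19 and Clu cluster, at 2162 to 2851 CPM, above the other clusters of the same library in all 6 libraries. This order depended on the clustering. At the finer clustering, the cluster led by Efna5, Ccbe1 and Tiam2 held Spp1 at 1909 to 2940 CPM. That range overlapped the finer H19 cluster at 2211 to 3055 CPM. Another finer tumour-like cluster, led by Gm47080 and Spata7, held 843 ± 49.6 CPM.

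**Figure D1:**
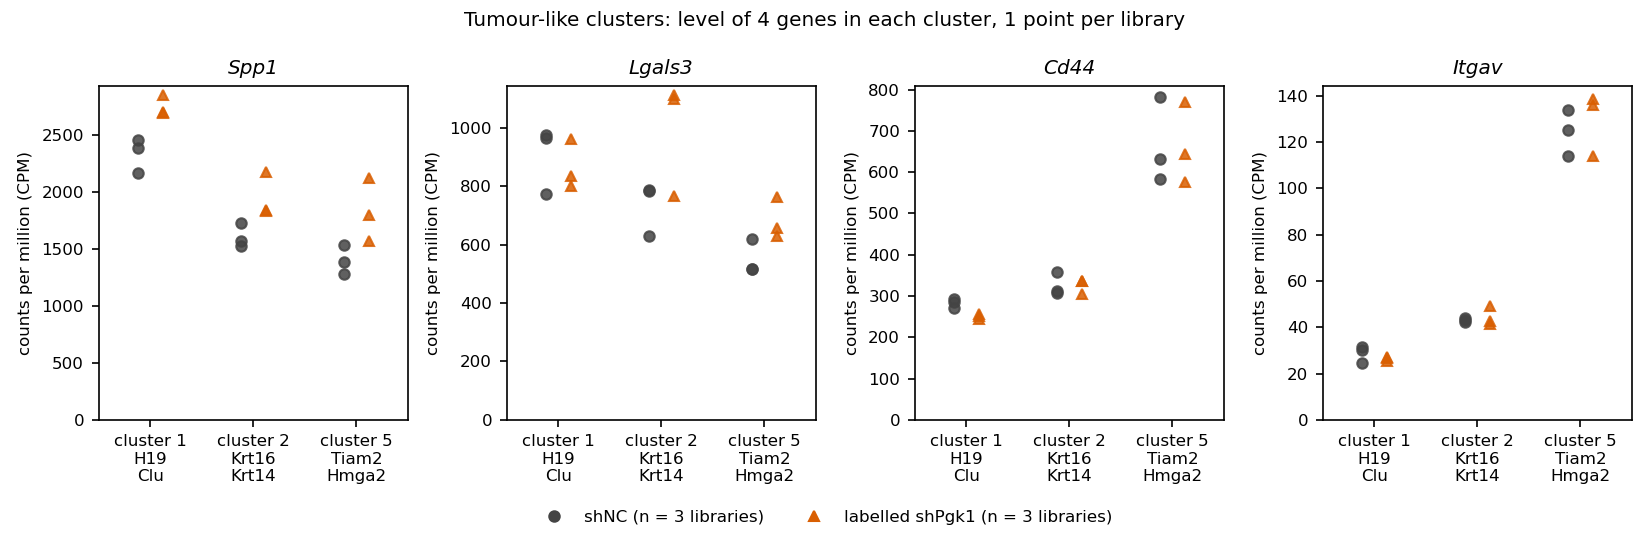
Level of Spp1, Lgals3, Cd44 and Itgav in the 3 tumour-like clusters, in CPM, with 1 point per library (grey circles shNC, orange triangles labelled shPgk1). Cd44 and Itgav rise from the H19 cluster to the Tiam2 cluster in all libraries, while Spp1 is highest in the H19 cluster.

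Itgav, the alpha-v integrin chain, was highest in T or NK-like cells at 305, 341 and 307 CPM in the shNC libraries against 242, 334 and 279 CPM in the libraries labelled shPgk1. Endothelial-like cells overlapped them at 199 ± 63.9 CPM. The other lineages lay between 98.9 and 48.8 CPM, tumour-like cells lowest. At the finer clustering a Foxp3, Il2ra and Icos cluster, the marker set of regulatory T cells, held 806 ± 114 CPM (680 to 979), above the Cd8a cluster at 211 ± 28.9 CPM (184 to 249) in all 6 libraries. Among macrophages, the Slc7a2 and Ly6i cluster held 201 ± 32.0 CPM and the C1q-rich cluster 35.8 ± 4.38 CPM, beside Malat1 at 3648 and 658 CPM, whose part was not tested.

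Cxcr4, the chemokine receptor that also binds CXCL12, was even over the leukocytes and nearly missing from the tumour-like cells. Monocyte or macrophage-like cells held 78.3, 78.3 and 78.0 CPM in the shNC libraries against 69.1, 70.4 and 65.2 CPM in the others. Neutrophil-like (67.6 CPM), T or NK-like (67.1 CPM), dendritic-like (53.9 CPM) and endothelial-like cells (41.5 CPM) had SDs of 11.4 to 16.2 CPM and overlapped in turn. Fibroblast-like cells held 7.97 ± 1.77 CPM and epithelial tumour-like cells 5.09 ± 2.15 CPM, both at or under the yardstick and read as background. The Foxp3 cluster held 123 ± 20.9 CPM and the Cd8a cluster 50.6 ± 13.9 CPM, with ranges of 90.5 to 149 and 34.5 to 70.7 CPM.

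**Figure D2:**
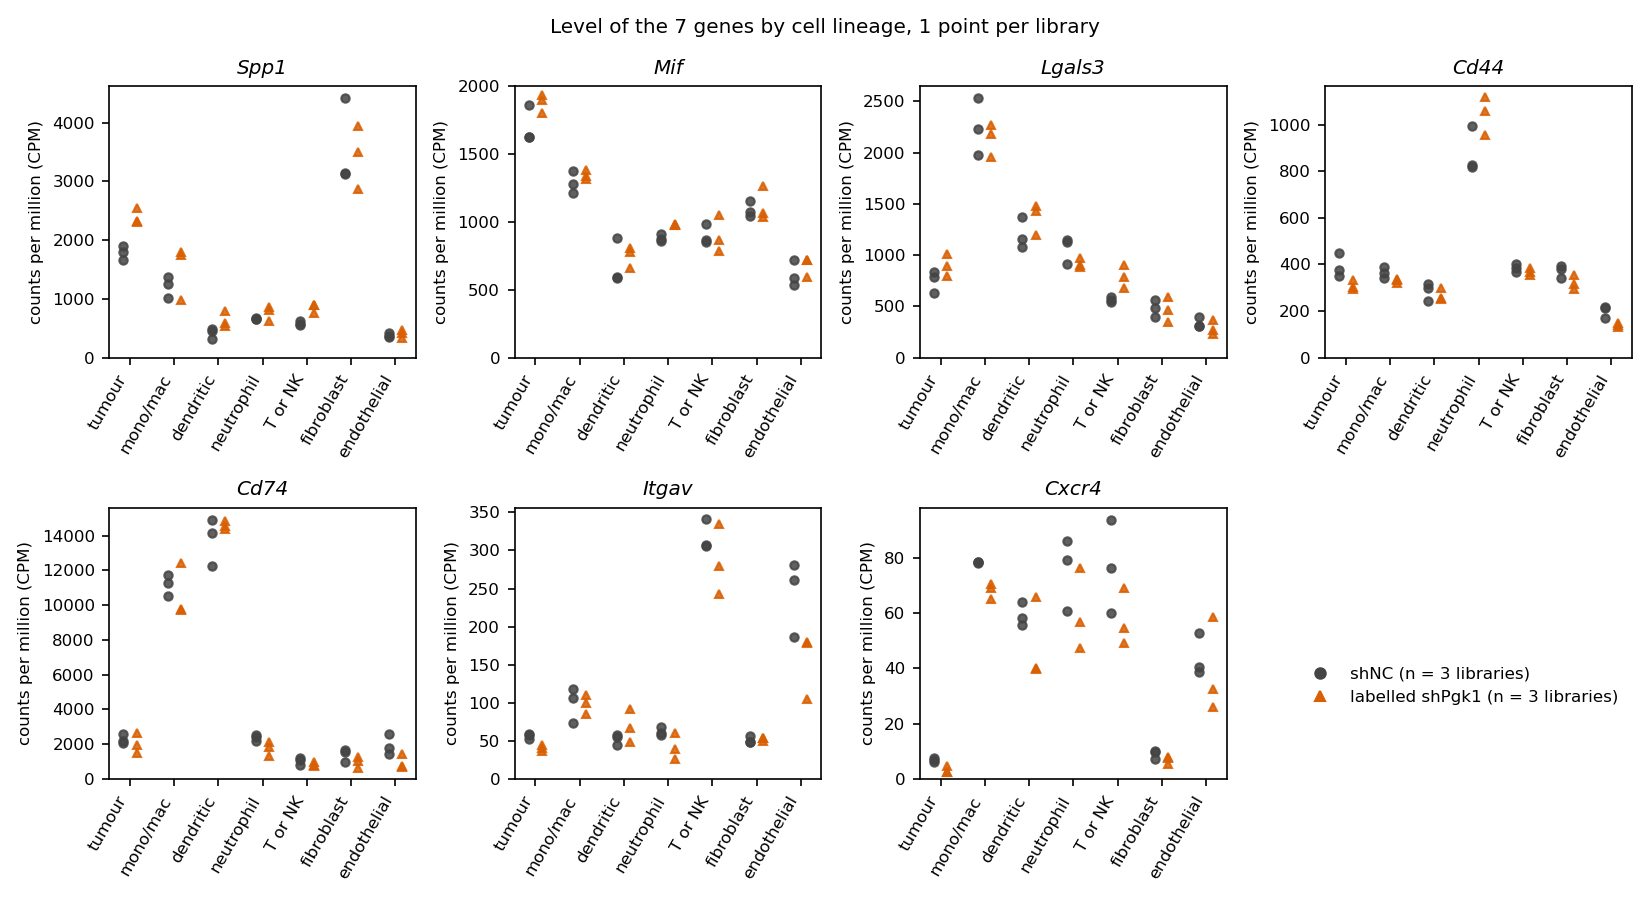
Level of each gene in the 7 lineages, in CPM with axes from 0, with 1 point per library (grey circles shNC, orange triangles labelled shPgk1, 3 libraries each). Spp1 is highest in fibroblast-like, Lgals3 in monocyte or macrophage-like and Cd44 in neutrophil-like cells, and Cxcr4 in tumour-like cells lies between 2.62 and 7.68 CPM.

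**Figure D3:**
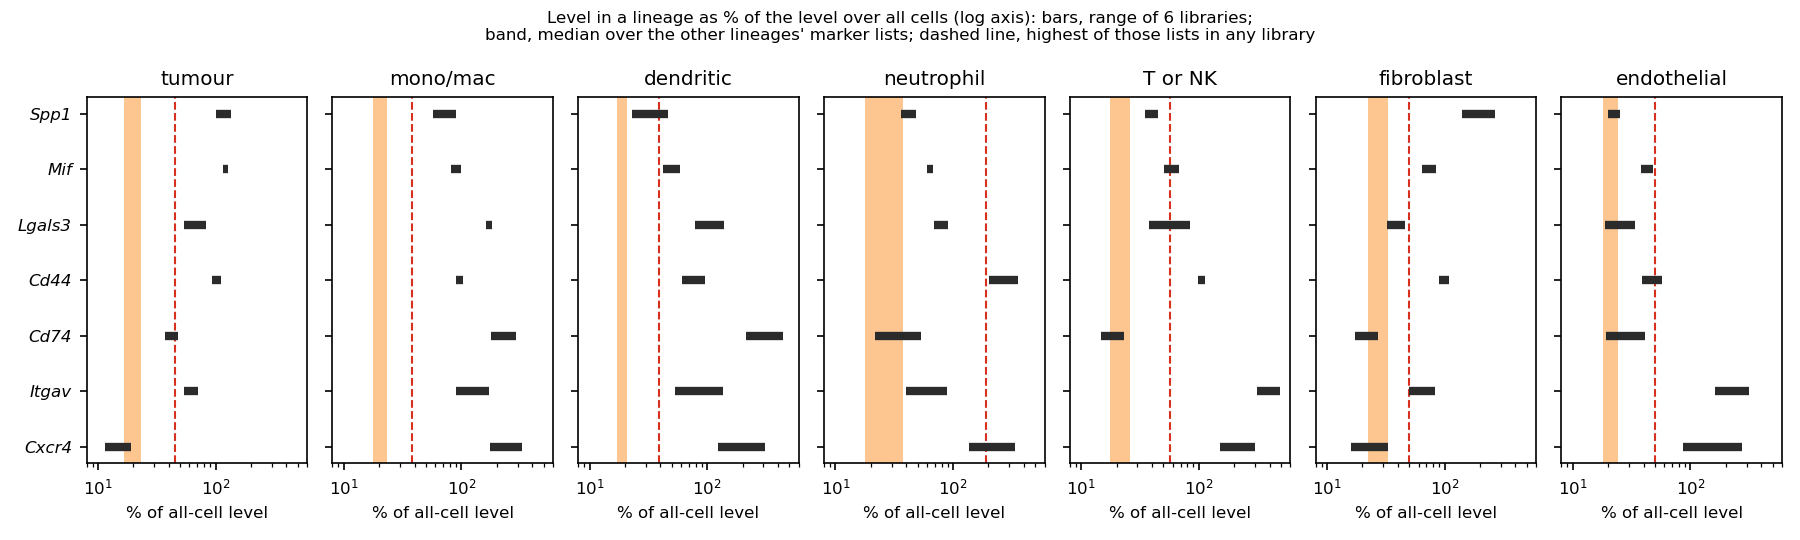
Level of each gene in a lineage as a percentage of its level over all kept cells (log axis); bars span the 6 libraries, the band spans the median of the other lineages' marker lists and the dashed line is the highest such list in any library. Cxcr4 in tumour-like and fibroblast-like cells and Cd74 in T or NK-like and fibroblast-like cells lie at or below the band.

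The share of cells with at least 1 UMI of a gene was counted too. Each cell was thinned to 1000 UMIs so that depth did not set the share. Itgav was then seen in 20.5 to 31.9% of T or NK-like cells and in 4.33 to 6.86% of tumour-like cells, against 47.5 to 74.1% and 36.3 to 45.5% without thinning, at median depths of 5657 and 11442 UMIs. Both MIF receptor parts, Cd74 and Cd44, were seen together in 20.5 to 29.4% of tumour-like and 27.2 to 32.7% of macrophage-like cells (87.3 to 91.0% and 88.1 to 93.2% without thinning). A Cd74 UMI alone was found in 43.0 to 70.3% of thinned T or NK-like cells, whose Cd74 level is read as background, so these joint shares include background counts. Cxcr4 was seen in 0.34 to 0.84% of thinned tumour-like cells and in 6.67 to 8.69% of thinned macrophage-like cells (4.72 to 11.5% and 48.5 to 55.2% without thinning).

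For each gene the 3 other genes with the most similar level over the 42 sums of lineage and library were listed, as a description, since these sums share libraries and lineages. Cd74 went with the MHC class II genes H2-Eb1, H2-Aa and H2-Ab1 (Pearson r = 0.994, 0.994 and 0.993). Spp1 went with Serf1 (0.910) and with the syndecans Sdc1 (0.904) and Sdc2 (0.878), which are cell-surface proteoglycans. Lgals3 went with Atp6v1f (0.904), a subunit of the lysosomal proton pump, and Dnase2a (0.904), a lysosomal nuclease, then Rbm47 (0.867). Cxcr4 went with Hcls1 (0.958), Gna13 (0.945) and Prex1 (0.938), genes of leukocyte signalling. Cd44 went with Il17ra, Notch2 and Por (0.905, 0.902 and 0.897), Itgav with Raph1, Gimap1 and Mob2 (0.906, 0.893 and 0.893), and Mif, the flattest, with Syngr1, Comtd1 and Pglyrp3 (0.815, 0.790 and 0.789).

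The groups were then compared over all kept cells, where 4 of the 7 genes passed the test (edgeR quasi-likelihood, Benjamini-Hochberg adjusted p below 0.05 over all genes) beside 16.7% of the 19518 genes tested. Spp1 lay at 1399, 1529 and 1652 CPM in the shNC libraries against 1712, 2213 and 2038 CPM in the libraries labelled shPgk1, with no overlap, and rose by a log2 fold of 0.45 ± 0.11 (edgeR adjusted p = 0.0384). Mif lay at 1274, 1298 and 1483 CPM against 1584, 1560 and 1624 CPM and rose by 0.30 ± 0.08 (edgeR adjusted p = 0.0462). Both ligands were thus higher in each library labelled shPgk1 than in any shNC library. How many of all genes separate the groups in this way was not counted, here or in the lineages below. An unadjusted p below 0.05 (edgeR) was reached by 7180 of the 19518 genes.

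The 2 receptors that passed moved the other way. Cxcr4 lay at 44.8, 44.5 and 40.0 CPM in the shNC libraries against 30.8, 21.3 and 22.8 CPM in the others and fell by 0.72 ± 0.14 on the log2 scale (edgeR adjusted p = 0.0232). Itgav lay at 97.5, 82.5 and 95.7 CPM against 69.8, 68.5 and 64.7 CPM and fell by 0.37 ± 0.09 on the log2 scale (edgeR adjusted p = 0.0343). Neither pair of groups overlapped. Lgals3 (log2 fold -0.05 ± 0.11, edgeR adjusted p = 0.770), Cd44 (-0.16 ± 0.07, 0.139) and Cd74 (-0.33 ± 0.20, 0.258) did not pass. Without library 1 labelled shPgk1, Cd74 did (-0.55, edgeR adjusted p = 0.0101). In that fit 5173 of 20039 genes passed, beside 3250 of 19518 with all libraries.

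Sums over all cells mix lineages, and a gene made by fewer cells cannot be told apart there from less RNA per cell. The tumour-like share of kept cells was 26.0 to 39.2% for shNC against 44.9 to 48.4% for the libraries labelled shPgk1, and the macrophage-like share 33.9 to 36.8% against 21.8 to 30.4%. These shares did not overlap, and their part in the all-cell folds was not tested. Each of the 4 calls was lost when certain single libraries were left out. None of the 4 genes passed without shNC library 2, without library 2 labelled shPgk1 or without library 3 labelled shPgk1, where few genes passed at all (3, 9 and 3), and the highest adjusted p over all alternatives was 0.135 for Spp1, 0.160 for Mif, 0.130 for Itgav and 0.0967 for Cxcr4 (edgeR). Spp1, Itgav and Mif also failed without shNC library 1, and Spp1 and Itgav without shNC library 3. The directions held in all of these. Over all alternatives the log2 folds ran from 0.37 to 0.60 for Spp1 and from 0.26 to 0.39 for Mif. They ran from -0.45 to -0.33 for Itgav and from -0.84 to -0.61 for Cxcr4.

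Within epithelial tumour-like cells 2 of the 7 genes passed, beside 8.26% of the 16269 genes tested. Spp1 lay at 1898, 1795 and 1668 CPM in the shNC libraries against 2325, 2546 and 2304 CPM in the libraries labelled shPgk1 and rose by a log2 fold of 0.57 ± 0.11, which is 1.48-fold (edgeR adjusted p = 0.0277). The 2 groups did not overlap. Inside each tumour-like cluster the same direction was smaller and did not pass, at 0.17 ± 0.08 in the H19 and Clu cluster, 0.24 ± 0.11 in the Krt16 and Krt14 cluster and 0.39 ± 0.14 in the Tiam2 cluster (edgeR adjusted p = 0.231, 0.310 and 0.286). The 2 groups overlapped in none of the 3 clusters, but how many of all genes separate the groups there was not counted. An unadjusted p below 0.05 (edgeR) was reached by 3064 of 13687, 2295 of 13982 and 1597 of 13098 genes in that order. The call was also lost with cells gated directly on Epcam and Krt8 and without shNC library 2 or 3 or library 2 or 3 labelled shPgk1 (edgeR adjusted p up to 0.310 over all alternatives).

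Cxcr4 in the same cells lay at 6.7, 6.3 and 7.7 CPM in the shNC libraries against 4.6, 2.6 and 2.6 CPM in the others, from 160 to 264 UMIs per library, and fell by 0.94 ± 0.21 on the log2 scale (edgeR adjusted p = 0.0370). This level lay at or under the yardstick, and it stood close to the median macrophage marker in each library. As a share of the macrophage level of the same library, Cxcr4 stood at 8.56, 8.03 and 9.84% in shNC and the median macrophage marker at 8.70, 8.18 and 9.72%. In the libraries labelled shPgk1 Cxcr4 stood at 6.62, 3.76 and 4.02% and the median marker at 7.14, 3.96 and 4.54%. The summed macrophage markers in tumour-like cells, all 8 of them present, lay at 777 to 957 CPM in the shNC libraries against 394 to 758 CPM in the others, and their part in the Cxcr4 fold was not tested. Inside the H19 and Clu cluster Cxcr4 passed (log2 fold -1.07, edgeR adjusted p = 0.0167), beside 697 of 13687 genes. Inside the Krt16 and Krt14 cluster (-1.07, 0.0814) and the Tiam2 cluster (-0.81, 0.274) it did not. In those clusters 30 of 13982 and 38 of 13098 genes passed. The call was also lost with cells gated on Epcam and Krt8 (-0.92, 0.0777) and without shNC library 2 or 3 or library 2 or 3 labelled shPgk1 (edgeR adjusted p up to 0.157).

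The other genes did not pass in tumour-like cells. Lgals3 lay at 831, 782 and 634 CPM in the shNC libraries against 795, 889 and 1010 CPM in the libraries labelled shPgk1, with overlap (log2 fold 0.41 ± 0.14, edgeR adjusted p = 0.0787). It passed without shNC library 1 (edgeR adjusted p = 0.0264), where 4163 of 17156 genes passed. It also passed without library 1 labelled shPgk1 (edgeR adjusted p = 0.0495), where 2193 of 16384 genes did. Inside the clusters, in the order above, its log2 folds were -0.13 ± 0.10, 0.41 ± 0.16 and 0.31 ± 0.14. DESeq2, which called 3124 of all genes, put Lgals3 past the threshold (adjusted p = 0.0227), as it did Mif (0.0225). Mif lay at 1626, 1627 and 1861 CPM against 1901, 1803 and 1933 CPM (log2 fold 0.29 ± 0.11, edgeR adjusted p = 0.0925). Inside the clusters Mif showed log2 folds of -0.01 ± 0.10, -0.01 ± 0.10 and 0.04 ± 0.15. Itgav lay at 52.3, 58.4 and 59.4 CPM against 40.3, 45.1 and 37.2 CPM, with no overlap (log2 fold -0.32 ± 0.10, edgeR adjusted p = 0.0614). It passed without shNC library 1 (edgeR adjusted p = 0.0296), beside the 4163 of 17156 genes given above. Its log2 folds inside the clusters were -0.19 ± 0.10, 0.01 ± 0.11 and 0.06 ± 0.13. Cd44, at 351, 447 and 374 CPM against 295, 332 and 304 CPM with no overlap (-0.18 ± 0.12), and Cd74 (-0.05 ± 0.19) had edgeR adjusted p of 0.287 and 0.868. The clusters differ in the level of these genes, and their mix differed between the groups. The H19 and Clu cluster made up 25.3 to 39.2% of tumour-like cells in shNC against 51.4 to 52.2% in the libraries labelled shPgk1. For the Tiam2 cluster this was 24.2 to 34.3% against 11.4 to 16.5%, and for the Krt16 and Krt14 cluster 32.9 to 40.4% against 32.1 to 36.6%. The part of this mix in the folds of the lineage, that of Spp1 included, was not tested.

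None of the 7 genes passed in monocyte or macrophage-like cells, the cells in which Lgals3, Cd74 and Cxcr4 were counted most, beside 0.661% of 15586 genes tested. With edgeR 2 of the 7 had an unadjusted p below 0.05, beside 2828 of the 15586 genes. DESeq2 called 0 of the 7, beside 606 of all genes. Cxcr4 was lower without overlap (values above, log2 fold -0.25 ± 0.08, edgeR adjusted p = 0.165), as was Cd44 at 391, 364 and 342 CPM against 318, 333 and 336 CPM (-0.20 ± 0.08, 0.204). Spp1 spread widely, at 1009, 1378 and 1246 CPM in the shNC libraries against 980, 1751 and 1792 CPM in the others (0.26 ± 0.25, 0.629), so library 1 labelled shPgk1 was the lowest and libraries 2 and 3 the highest. Mif (0.01 ± 0.09, interval of 2 SE from -0.16 to 0.18), Lgals3 (-0.12 ± 0.11, -0.34 to 0.09), Cd74 (-0.12 ± 0.11, -0.34 to 0.10) and Itgav (-0.06 ± 0.16, -0.38 to 0.25) had edgeR adjusted p of 0.568 to 0.949.

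**Figure D4:**
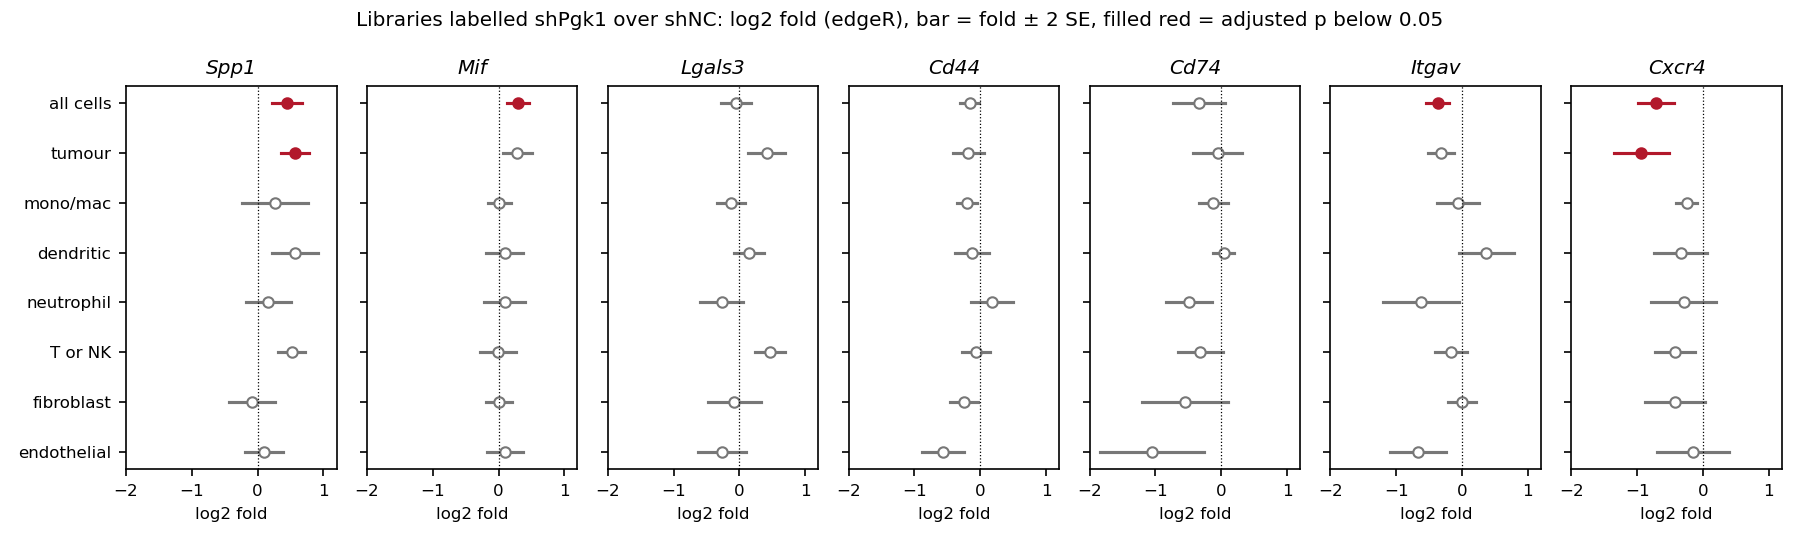
Log2 fold of the libraries labelled shPgk1 over shNC for each gene over all cells and in each lineage; bars are the fold ± 2 SE from edgeR, and filled red points have an adjusted p below 0.05. The 6 red points are Spp1, Mif, Itgav and Cxcr4 over all cells and Spp1 and Cxcr4 in tumour-like cells.

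The difference between the macrophage and the tumour fold was tested for each gene in 1 fit with library as a term, in which 2.31% of 16953 genes passed. Only Cxcr4 passed among the 7, with a log2 fold 0.76 ± 0.18 higher in macrophage-like cells (edgeR adjusted p = 0.0366). Cxcr4 in tumour-like cells lay at or under the yardstick, and the part of free RNA in the difference was not tested. The call was lost without shNC library 1, 2 or 3 or library 2 or 3 labelled shPgk1 (edgeR adjusted p up to 0.203). For Lgals3 the macrophage fold was lower by 0.49 ± 0.17 on the log2 scale (edgeR adjusted p = 0.142, and 0.0284 without shNC library 1), and for Spp1 the difference was -0.31 ± 0.21 (0.496).

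In the smaller lineages no gene of the 7 passed either, beside 0.0113% of 8816 genes in dendritic-like, 0.251% of 5568 in neutrophil-like, 0.102% of 11821 in T or NK-like, 0.0245% of 12252 in fibroblast-like and 0.0557% of 8969 in endothelial-like cells. By edgeR, unadjusted p below 0.05 was reached by 1, 2, 3, 1 and 3 of the 7 in that order. Of all genes tested, 674, 434, 1050, 1060 and 603 reached it. DESeq2 called 0, 0, 2, 0 and 0 of the 7, beside 21, 14, 62, 52 and 13 of all genes. The 2 were Spp1 and Lgals3 in T or NK-like cells. Spp1 lay there at 631, 558 and 574 CPM in the shNC libraries against 756, 889 and 902 CPM in the libraries labelled shPgk1, with no overlap (log2 fold 0.52 ± 0.10, edgeR adjusted p = 0.0949, DESeq2 adjusted p = 0.000873). With cells gated on Cd3e the fold was 0.17 (edgeR adjusted p = 0.916). Lgals3 lay at 590, 546 and 560 CPM against 679, 903 and 786 CPM, with no overlap either (0.47 ± 0.11, edgeR 0.158, DESeq2 0.0194). Both passed without library 1 labelled shPgk1 (edgeR adjusted p = 0.0343 and 0.0437), beside 54 of 11989 genes. Tumour markers in these cells summed to 359 to 468 CPM in the shNC libraries against 452 to 644 CPM in the others, and their part in both folds was not tested.

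Fibroblast-like cells, which held Spp1 highest, showed a log2 fold of -0.09 ± 0.17 (edgeR adjusted p = 0.926, interval of 2 SE from -0.44 to 0.26). In dendritic-like cells Spp1 lay at 321, 478 and 452 CPM against 788, 541 and 582 CPM with no overlap (0.57 ± 0.18, edgeR adjusted p = 0.387), at 23.0 to 46.0% of its all-cell level, where the highest other marker list reached 39.1%. With no filter on low counts this fold passed (0.60, edgeR adjusted p = 0.00260), beside 138 of 19941 genes. Endothelial-like cells held Cd44 at 217, 214 and 168 CPM against 140, 131 and 147 CPM (-0.57 ± 0.16, 0.440) and Itgav, which they do express, at 187, 261 and 281 CPM against 179, 180 and 105 CPM (-0.68 ± 0.21, 0.491), from 81 to 510 UMIs per library. Neither pair overlapped, and Itgav passed with no filter on low counts (-0.68, edgeR adjusted p = 0.0110), beside 137 of 20106 genes. Endothelial-like cells held Cd74 at 2616, 1440 and 1779 CPM against 1414, 707 and 778 CPM, also without overlap (-1.05 ± 0.40, edgeR adjusted p = 0.710). All 8 macrophage markers were present in these cells and summed to 982 to 1498 CPM against 546 to 786 CPM, and their part in the Cd74 values was not tested. Neutrophil-like cells gave as few as 5 Itgav and 6 Cxcr4 UMIs in library 1 labelled shPgk1, which had 60 such cells, and their log2 folds there had wide errors (-0.62 ± 0.29 and -0.30 ± 0.25).

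Beside the 7 genes, 37 other genes of these pathways were followed as lists. Over all cells 7 of the 37 passed, 2 higher and 5 lower, beside the 16.7% of all genes. Of 9 integrin chains that pair with Itgav or bind osteopontin, Itgb3 (log2 fold -0.64 ± 0.14), Itga5 (-0.59 ± 0.16) and Itgb8 (-0.94 ± 0.24) fell (edgeR adjusted p = 0.0288, 0.0460 and 0.0387), and their median over 9 was -0.25 against -0.05 for all genes. Of 4 MIF relatives, Cxcr2, a neutrophil receptor for MIF and chemokines, fell by 1.29 ± 0.31 on the log2 scale (edgeR adjusted p = 0.0356), from 4.74, 5.63 and 4.93 CPM to 1.08, 2.77 and 2.09 CPM. Neutrophil-like cells were 5.71, 5.18 and 3.95% of cells in shNC and 0.91, 2.87 and 2.78% in the others, and their part in it was not tested.

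Among 11 galectins and galectin-binding proteins, Lgals1, galectin-1, rose. It lay at 4856, 4908 and 5752 CPM in the shNC libraries against 6218, 8282 and 8006 CPM in the libraries labelled shPgk1 (log2 fold 0.61 ± 0.13, edgeR adjusted p = 0.0285). Of 6 genes of hyaluronan and CD44 splicing, Has1, a hyaluronan synthase, fell by 1.66 ± 0.36 on the log2 scale (0.0305) and Esrp1, an epithelial splicing factor, rose by 0.44 ± 0.12 (0.0418). None of the 7 class II partners of Cd74 passed. In tumour-like cells 3 of 36 tested companions passed, beside 8.26% of all genes, all of them lower, namely Havcr2 (-0.65 ± 0.12), Itgb3 (-0.77 ± 0.16) and Cxcr2 (-1.82 ± 0.37), with edgeR adjusted p of 0.0289, 0.0325 and 0.0349. Havcr2 encodes TIM-3, a receptor of myeloid and T cells. Their levels there were 5.50 to 11.3, 2.31 to 5.64 and 0.60 to 4.28 CPM, beside neutrophil markers at 256 to 362 CPM in the shNC libraries against 117 CPM or less in the others, and macrophage markers as given above, whose part was not tested. No companion passed in the other 6 lineages, among which 37 were tested in macrophage-like cells.

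Where the counts of each gene came from was compared last. Tumour-like cells held 46.0, 39.0 and 39.4% of all Spp1 counts in shNC and 67.5, 71.5 and 66.8% in the libraries labelled shPgk1. Fibroblast-like cells held 16.2, 16.7 and 27.8% against 7.19, 6.84 and 6.20%. Both differences had p = 0.1 by a two-sided exact permutation test, which cannot go lower with 3 libraries against 3, and an adjusted p of 0.204 over all genes and lineages. The same cells held 33.9, 33.2 and 39.0% against 49.7, 62.1 and 59.1% of all counts (tumour-like), and 7.24, 8.11 and 10.4% against 3.11, 4.32 and 4.41% (fibroblast-like), and the part of this make-up in the Spp1 shares was not tested.

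For Lgals3 the macrophage-like share was 68.0, 72.2 and 67.5% for shNC against 61.9, 39.9 and 45.2%, while tumour-like cells went from 20.5, 17.9 and 22.4% to 30.8, 51.5 and 47.7% (exact permutation test, p = 0.1 for each). Tumour-like cells held 43.3, 41.6 and 48.9% of Mif counts against 59.7, 71.8 and 70.3%. Cd74 stayed mostly in macrophage-like cells, with 74.7, 76.8 and 76.7% against 71.9, 63.3 and 62.2% (exact permutation test, p = 0.1). Cxcr4 counts lay at 72.7 to 73.7% in macrophage-like cells in shNC and at 72.1 to 78.5% in the libraries labelled shPgk1, with overlap (exact permutation test, p = 0.6), although those cells held less of all counts, 41.9, 41.4 and 37.7% against 35.0, 21.8 and 25.9%.

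**Figure D5:**
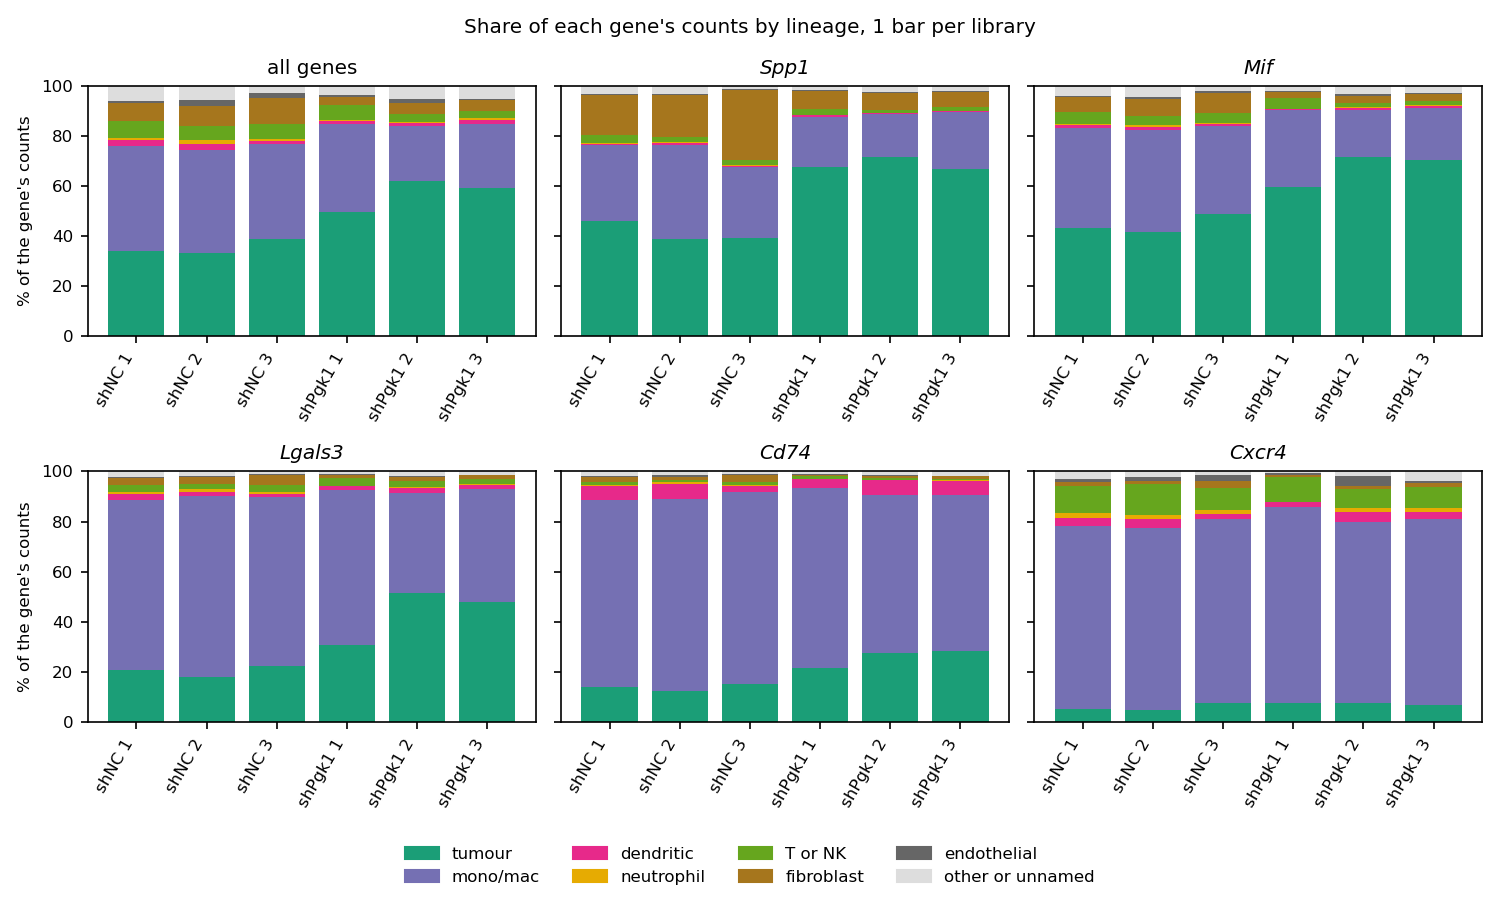
Share of counts by lineage in each library (stacked bars, percent of the gene's counts over all kept cells), for all genes and for 5 of the 7 genes. Tumour-like cells hold 39.0 to 46.0% of Spp1 counts in shNC and 66.8 to 71.5% in the libraries labelled shPgk1, beside 33.2 to 39.0% and 49.7 to 62.1% of all counts.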

How the data were processed

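Single-cell RNA was measured in 6 libraries. The authors deposited 1 matrix of raw UMI counts for each library. PISA 0.12 is named in the file headers, and Seurat 4 and GRCh38 (hg38) in the submitters' processing notes, although gene names are mouse and 27982 of 28649 (97.7%) are in GENCODE M21, so the build behind the counts is not known from the sources used here. The deposited cell names are running numbers, so of 26570 distinct names 11389 occur in more than 1 library and cannot show shared cells. No 2 libraries were alike within sampling noise (chi-square per degree of freedom 24.1 to 273). The labels tie no replicate to its own animal or culture, and p-values therefore reflect only how these libraries vary, which may be technical.

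Barcodes under 500 UMIs or 300 genes, or above 20% mitochondrial UMIs, were left out (643). Doublets scored above 0.25 by Scrublet (scanpy 1.11.5) were left out (825 cells); this limit was set after the scores were seen, since the automatic one marked 1 cell in each of 4 libraries. Cells were clustered (2000 variable genes without the 7 genes, 30 components, 15 neighbours, leidenalg 0.10.2, resolution 0.5 and, as an alternative, 1.0) and named where at least 3 fixed markers had a log2 fold above 1. Counts were summed per library and tested with edgeR 4.0.16 (quasi-likelihood, TMM, filterByExpr, R 4.3.3), with DESeq2 1.42.0 as an alternative, and the scripts were tested on simulated data. Fold errors are standard errors, and level errors are SDs over libraries. RefSeq promoter windows were searched for 6 of the 7 genes, and Cd74 was left out before the search. The genes named are the 7, Pgk1, companions past the threshold (up to 6 per lineage by p) and the 3 most similar genes with a mean of at least 20 CPM. The members, lists and markers were chosen with earlier results of these data known.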

Additional observations from a re-analysis of the deposited data

Results flagged for a closer look

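The fold of Cxcr4 differed between 2 cell types under the same contrast. Its log2 fold was 0.76 ± 0.18 higher in monocyte or macrophage-like than in epithelial tumour-like cells (edgeR adjusted p = 0.0366), with folds of -0.25 and -0.94 from 3 libraries against 3. In tumour-like cells Cxcr4 lay between 2.62 and 7.68 CPM, at the level of the macrophage markers in the same cells.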

How the results depend on the processing

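All 7 called folds (4 over all cells, 2 in tumour-like cells and the Cxcr4 difference) kept their direction under 78 alternatives, 38 of them past the threshold and 40 not. Another 10 folds that were not called passed under some alternative, and 22 changed sign. With 1 library left out, counts of genes past the threshold ran from 3 to 5173 over all cells, 5 to 4163 in tumour-like, 15 to 487 in macrophage-like, 1 to 42 in dendritic-like, 4 to 24 in neutrophil-like, 9 to 54 in T or NK-like, 0 to 14 in endothelial-like and 0 to 9 in fibroblast-like cells, and the cause was not tested. With DESeq2 they were 3124 (tumour-like), 606 (macrophage-like), 21 (dendritic-like), 62 (T or NK-like), 52 (fibroblast-like) and 13 (endothelial-like). With no filter on low counts they were 2660, 567, 138, 357, 318 and 137 in that order, and 73 in neutrophil-like cells. With cells gated on the splitting markers they were 58 in tumour-like, 7 in dendritic-like, 24 in neutrophil-like, 7 in T or NK-like, 0 in endothelial-like and 7 in fibroblast-like cells. With finer clusters they were 56 in neutrophil-like and 19 in T or NK-like cells.

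With the replicate number as a block (replicate block) the counts were 2627 over all cells, 527 in tumour-like, 36 in macrophage-like, 13 in dendritic-like, 40 in neutrophil-like, 26 in T or NK-like, 27 in endothelial-like and 12 in fibroblast-like cells. Libraries that share a number deviated together with correlations of 0.11, 0.06 and -0.04, so the number does not pair them. Under the block Mif and Itgav over all cells and Spp1 in tumour-like cells did not pass, and Cd74 in endothelial-like cells did (adjusted p = 0.00175).

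Of the shares of counts or cells, none of which could pass, 5 changed sign under 1 or 2 alternatives. With 1 library left out, the difference (shPgk1 minus shNC) for Itgav counts in macrophage-like cells ran from -6.85 to 0.24 points, being 0.22 when shNC library 1 was dropped and 0.24 when library 2 labelled shPgk1 was. For Cxcr4 counts there it ran from -0.15 (library 1 labelled shPgk1 dropped) to 3.05 points, and gated cells gave -1.14. For cells with a UMI it ran from -2.27 to 0.10 for Itgav in macrophage-like cells (0.10 with shNC library 1 dropped) and from -3.17 to 0.11 for Cxcr4 in T or NK-like cells (0.11 with shNC library 2 dropped), and for Cd44 in tumour-like cells it became 1.10 when cells were not thinned. Fits within single clusters were added after the clusters were seen. Depth limits the rarer genes: Cxcr4 in fibroblast-like cells rests on 26 to 89 UMIs per library.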
